A study of Mus musculus with 8 samples.

Results

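Chandelier cells are described here from the 70 nuclei that the deposited cell table labels ChC, out of 102330 nuclei in all and 10403 inhibitory nuclei. They made up 0.673% of the inhibitory nuclei, and the neighbouring Pvalb label held 3905 nuclei, or 55.8 for each chandelier nucleus. The data were droplet-based single-nucleus RNA counts of primary visual cortex (V1) at postnatal day 21, in 8 libraries of 4 groups. In every mouse Nr3c1, which encodes the glucocorticoid receptor, was flanked by loxP sites (GR fl/fl), and every mouse received an AAV2/5 vector at birth, in which the astrocyte promoter GfaABC1D drove EGFP together with either Cre (GR-KO) or the truncated, inactive ΔCre (GR-Con). Mice were reared normally (NR) or in darkness (DR), and each of the 4 combinations of rearing and vector (for example NR GR-Con) had 1 male and 1 female library. The vector was aimed at astrocytes and carried a membrane-targeted EGFP (eGFP-CAAX), and each group holds 2 mice. Nuclei positive for GFP were removed by sorting, yet the paper still reports EGFP expression from the vector in astrocytes of these data. The 5 to 14 chandelier nuclei per library, with 90385 to 225566 UMIs (counted RNA molecules), were too few for gene tests between groups, so the libraries were pooled to describe identity. Levels are given in CPM, the UMIs of a gene per 1000000 UMIs of 1 cell type in 1 library, as mean ± SD over the 8 libraries.

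Chandelier cells are GABAergic interneurons whose axon forms rows of boutons on the axon initial segment of pyramidal neurons, the site where action potentials start. They arise late from the medial ganglionic eminence (MGE), as do the basket cells that make up most of the parvalbumin class and that contact the cell body instead. Both are fast spiking in adult cortex, so the molecular question is what separates chandelier cells from the Pvalb nuclei next to them.

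The label was first checked against markers of the GABAergic and chandelier identity. Gad1, which encodes the larger GABA-synthesising enzyme, had a UMI in 70 of 70 chandelier nuclei, at 306 ± 66.7 CPM against 303 ± 32.9 CPM in Pvalb nuclei. Gad2, the gene of the smaller enzyme, stood at 153 ± 38.5 against 219 ± 15.7 CPM and was lower in chandelier cells in 8 of 8 libraries, although the ranges of the libraries overlapped. Slc32a1, the vesicular GABA transporter, was at 26.7 ± 15.5 and 29.4 ± 3.01 CPM. In the 8 excitatory types Gad1 stood at 1.45 to 2.14 CPM. The chandelier nuclei held 1 to 17 Gad1 UMIs each with a median of 5, and a single UMI does not by itself show expression.

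Of 9 chandelier markers, 5 reached a mean of 20 CPM over both types, and all 5 had a higher mean in chandelier than in Pvalb nuclei. The list was chosen for chandelier cells, so this checks the label and is no finding. In addition, Unc5b, Vipr2 and Cpne5 reached that mean only through their chandelier level, which set their direction in advance. Unc5b (chromosome 10, 60762593 to 60831581 of GRCm38), a netrin receptor, ran from 168 to 301 CPM over the libraries with a median of 223 CPM, and from 0.964 to 3.82 CPM in Pvalb nuclei. Its chandelier level was 168 to 219 CPM in NR and 226 to 301 CPM in DR libraries, a difference seen after the fact and not tested. Vipr2 (chromosome 12, 116077726 to 116146261), a receptor for vasoactive intestinal peptide, ran from 35.3 to 102 CPM against 0 to 0.728 CPM. Trps1 (chromosome 15, 50654752 to 50890463), a GATA-type zinc-finger repressor, stood at 2594 ± 345 against 562 ± 99.0 CPM. Nfib, a nuclear factor I transcription factor, stood at 606 ± 77.5 against 79.7 ± 9.43 CPM. For each of these 4 genes the lowest chandelier library lay above the highest Pvalb library. Cpne5, a calcium-dependent membrane-binding copine, was at 65.3 ± 35.6 against 3.10 ± 1.13 CPM, with 0 UMIs in the NR GR-Con male library, so its ranges overlapped. Nfib and Cpne5 separate chandelier from Pvalb nuclei but not from every other interneuron type: Nfib stood at 1365 CPM in Lamp5 and 637 CPM in Vip nuclei, and Cpne5 at 67.7 CPM in Sst nuclei. Pthlh, parathyroid hormone-like hormone, was sparse at 18.3 ± 7.66 CPM (23 UMIs in all) yet above Pvalb in 8 of 8 libraries. Nkx2-1 (2 UMIs), Scube3 (3 UMIs) and Col15a1 (6 UMIs) were close to absent, and all 6 of the Col15a1 UMIs came from 1 nucleus.

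**Figure D1:**
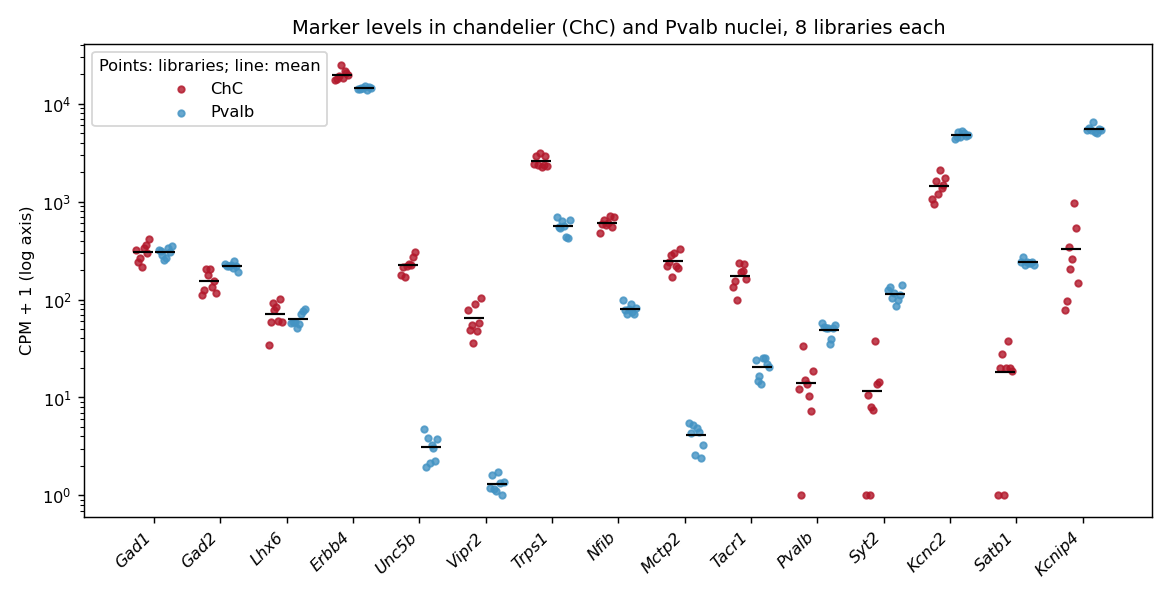
CPM of 15 genes in chandelier (red) and Pvalb (blue) nuclei; each point is 1 of 8 libraries, the line is the mean, and the log axis shows CPM + 1. The points of Unc5b, Vipr2, Trps1, Nfib, Mctp2 and Tacr1 lie above those of Pvalb nuclei in every library, those of Pvalb, Syt2, Kcnc2, Satb1 and Kcnip4 lie below, and those of Gad1 and Lhx6 mix.

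The 70 nuclei were not equally typical. Each was compared with the profile of every cell type over genes, with its own counts left out of the chandelier profile, and 67 of 70 resembled the other chandelier nuclei most. The label came from clustering the same counts, so this likeness was largely set in advance. For all 67 the next most similar type was Pvalb, and the Pearson correlation with chandelier cells exceeded that with Pvalb by 0.044 to 0.078. The other 3 nuclei all came from DR libraries. The nucleus from the DR GR-KO male library had 17058 UMIs, none of Unc5b, Trps1, Nfib or Mctp2, but 105 of Adarb2, a gene of interneurons from the caudal ganglionic eminence (CGE), and the 6 Col15a1 UMIs. The nucleus from the DR GR-Con male library had 13479 UMIs, none of Unc5b or Nfib, 6 of Trps1 and 15 of Ndst3, and like the former it was closest to Pvalb nuclei. The third, from the DR GR-Con female library, had the chandelier markers (44 UMIs of Trps1, 25 of Nfib) and 32853 UMIs, together with 168 of Kcnip4 and 31 of Ptprt, and was closest to L6IT neurons. In the 67 nuclei Kcnip4 reached at most 17 UMIs and Adarb2 at most 5. Values below are for all 70 nuclei, as deposited, and are given again for 67 nuclei where a gene counted as higher or lower, with over 3 UMIs, lost its call or moved by more than 1.5 times in its mean. The 3 nuclei were singled out from these same counts, so values for 67 nuclei are a description and no independent check.

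**Figure D2:**
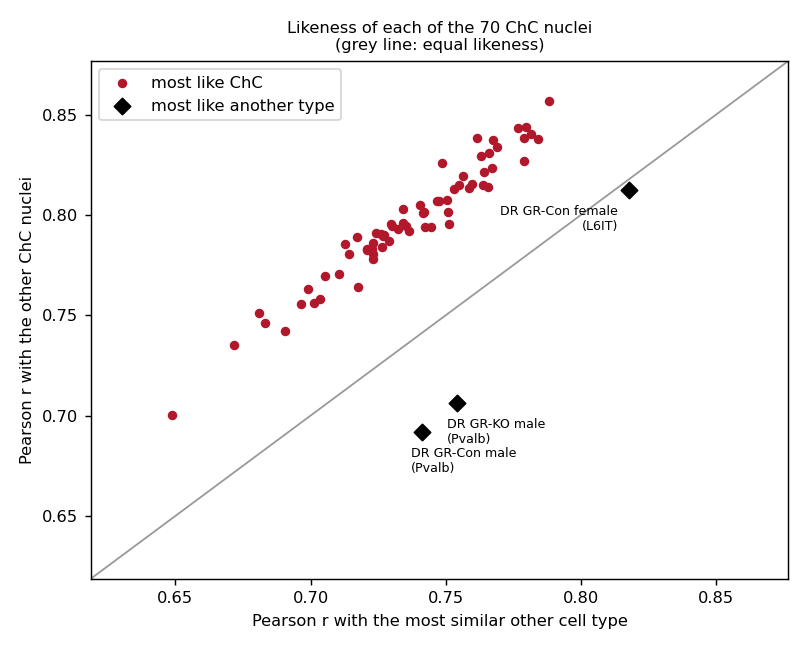
Pearson correlation of each of the 70 chandelier nuclei with the other chandelier nuclei (vertical) and with the most similar other cell type (horizontal), over genes; the grey line marks equal likeness. Of the nuclei, 67 (red) lie above the line and 3 (black, library and closest type written beside them) lie below it. The labels came from clustering the same counts, so most nuclei were likely to lie above it.

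Markers of other cell types were low in both types, with the exception of Camk2a. The 6 excitatory markers summed to 154 to 263 CPM over the libraries in chandelier nuclei and to 218 to 275 CPM in Pvalb nuclei. Camk2a made up most of each sum, at 122 to 209 CPM in chandelier and 190 to 254 CPM in Pvalb nuclei. It alone among the 6 reached a mean of 20 CPM over both types. Its chandelier range spanned the Gad2 mean of 153 CPM. The 18 glial and vascular markers summed to 64.0 to 146 against 97.5 to 176 CPM, and 5 of them (Aqp4, Cspg4, Cldn5, Flt1 and Col1a1) had 0 UMIs. Of the 18, Aldh1l1, a folate enzyme used as an astrocyte marker, was at 16.7 CPM (23 UMIs) against 2.83 CPM and above Pvalb in 8 of 8 libraries. The microglial marker P2ry12, a purine receptor, was at 21.4 CPM (27 UMIs) against 11.6 CPM and above Pvalb in 5 of 8 libraries, with overlap. The astrocyte genes Aqp4, a water channel, and Gja1, a connexin, had 0 and 3 UMIs. Among nuclear barcodes, 1220 of 101098 occurred in more than 1 library, and 2 of the 70 chandelier nuclei carried such a barcode, neither shared with another chandelier nucleus.

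Chandelier nuclei were slightly shallower than Pvalb nuclei. Their median depth per library ran from 14488 to 27521 UMIs with a median of 16256, against 14940 to 31974 with a median of 18138 in Pvalb nuclei. The ratio of the medians was 0.900 (mean log2 ratio -0.15, SD 0.12, n = 8) and below 1 in 7 of 8 libraries, with NR GR-Con female the exception (exact paired sign-flip permutation test, two-sided, p = 0.0234). Detected genes per nucleus were lower in 8 of 8 libraries (ratio 0.927, exact p = 0.00781, the smallest that 8 pairs allow).

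Pvalb was the most similar of the 19 other cell types. Over 11105 genes the correlation of log2(CPM + 5) was 0.949 with Pvalb (Spearman 0.946), 0.910 with Sst, 0.900 with Lamp5 and 0.894 with Vip, and it ranged from 0.831 to 0.851 over the 8 excitatory types. Genes at least 2-fold apart numbered 676 for Pvalb and 1049 for Sst. These correlations are across genes, share libraries and depend on depth, and are given as a description only.

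For the comparison with Pvalb nuclei, a gene counted as higher when its log2 difference on the CPM + 5 scale was at least 1 and the chandelier value exceeded the Pvalb value in at least 7 of 8 libraries, and as lower in the mirrored case. Of 6001 genes with a mean of at least 20 CPM over both types, 171 (2.85%) were higher and 260 (4.33%) were lower. Cell types were defined by clustering on the same counts, so no test is attached to these differences. The limits cut a continuum: Unc5c (1.00, higher in 8 libraries) and Eml1 (-1.0001, lower in 8 libraries) were just inside, Mtm1 (0.998) and Mpp7 (-0.999) just outside.

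The genes with the largest excess were far above the Pvalb level in every library. Mctp2 (chromosome 7, 72077830 to 72306608), a membrane protein with multiple C2 domains, ran from 169 to 328 CPM with a median of 231 in chandelier cells and from 1.40 to 4.51 CPM in Pvalb nuclei. Its log2 difference was 4.95 (jackknife SE 0.11), next to 5.01 (SE 0.14) for Unc5b. Hs3st4 and Hs3st2, which encode 3-O-sulphotransferases of heparan sulphate, stood at 1026 ± 215 against 38.5 ± 32.9 CPM and 264 ± 114 CPM against 3.89 to 11.6 CPM. These enzymes add a rare sulphate group to heparan chains at the cell surface. The phosphodiesterase genes Pde11a (235 ± 139 against 2.60 ± 1.24 CPM) and Pde3a (141 ± 47.5 against 2.02 ± 0.794 CPM) showed the same contrast. Pde11a was the least even of these genes, running from 57.6 to 487 CPM over the libraries. Schip1, whose protein family is tied to ankyrin-G at axon initial segments and nodes, stood at 1950 ± 327 against 125 ± 20.7 CPM. Nyap2, an adaptor of phosphoinositide 3-kinase in neurons, stood at 1501 ± 186 against 95.1 ± 12.1 CPM. Cntnap5b, a contactin-associated adhesion protein, stood at 2889 ± 453 against 214 ± 26.6 CPM. Of the remaining genes in this group, Cacna2d3 (1249 against 81.4 CPM), the retrotransposon-derived Rtl4 (250 against 15.4 CPM) and the cadherin gene Cdh6 (314 against 23.8 CPM) had log2 differences of 3.47 to 3.86. The ranges of the libraries did not overlap for any of the genes named in this paragraph.

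A separate question was which genes reached their highest level in chandelier cells among all 20 cell types. Of 3019 genes at 50 CPM or more in chandelier cells, 245 did so, but only 18 of these stood at least 2-fold above the next type. The chandelier profile rests on few nuclei, so its estimates vary more than those of large types and small leads should be read with that in mind. Mctp2 led, at 12.7 times the next type (Lamp5, 19.3 CPM). Pdlim3 (chromosome 8, 45885461 to 45919548), an actin-associated PDZ and LIM protein, stood at 199 ± 105 CPM, 8.58 times the next type, which was Pvalb. It varied widely between libraries, from 168 to 387 CPM in NR and from 75.9 to 160 CPM in DR libraries, a difference seen after the fact and not tested. Tacr1 (chromosome 6, 82402334 to 82560104), the substance P receptor, stood at 174 ± 46.7 CPM, 8.54 times the next type (Sst, 20.3 CPM). Then came Thsd7a, a membrane protein with thrombospondin repeats (4596 ± 504 CPM, 5.08 times Vip), Cntnap5b (4.53 times L5IT), the ryanodine receptor Ryr1 (85.8 ± 27.9 CPM, 4.38 times L5PT) and the zinc-finger gene Zfp804b (5754 ± 593 CPM, 3.81 times Vip). Epb41l4a (208 ± 60.8 CPM), the laminin gene Lamb1 (132 ± 72.4 CPM) and the growth factor gene Tgfb3 (59.3 ± 16.7 CPM) led by 2.56 to 3.49 times. Unc5b was not confined to chandelier cells: oligodendrocytes held 73.0 CPM, so its ratio was 3.09. Vipr2 was 2.10 times its level in OPCs, and Trps1 1.94 times its level in astrocytes. Pde11a and Hs3st4 separated chandelier from Pvalb nuclei but were higher elsewhere, in Lamp5 (1158 CPM) and L6b nuclei (3839 CPM). The genes with the largest contrast to Pvalb nuclei were thus only in part those that led among the 20 types.

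**Figure D3:**
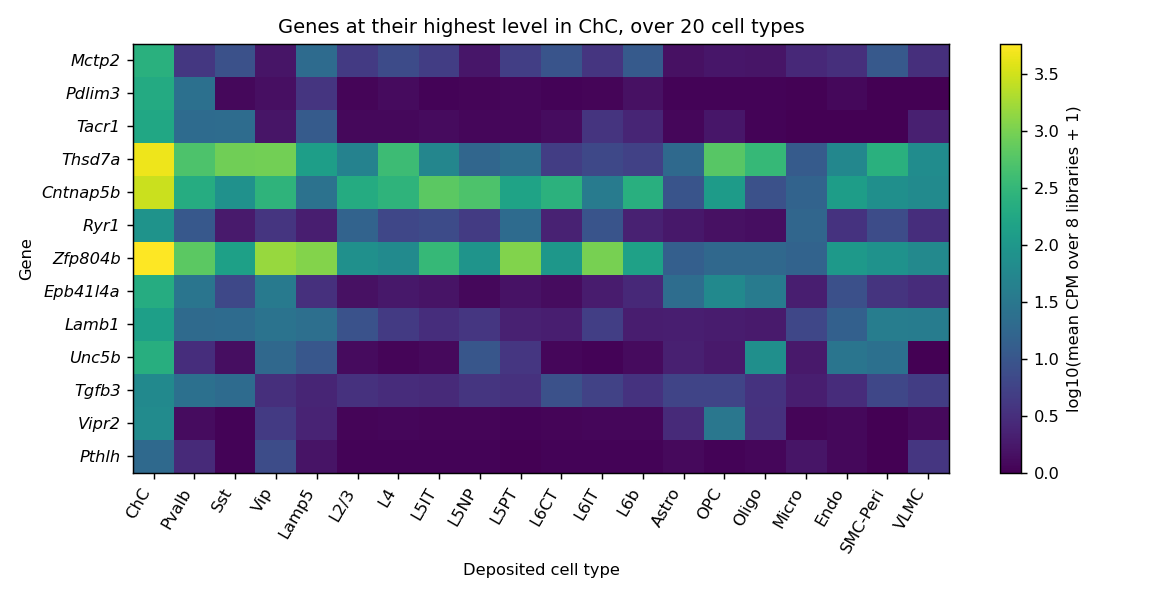
Mean CPM over 8 libraries, as log10(CPM + 1) on the colour scale, of the 11 named genes with the largest lead in chandelier cells and of Vipr2 and Pthlh (rows) in the 20 deposited cell types (columns). The ChC column is the brightest of each row; oligodendrocytes for Unc5b and OPCs for Vipr2 are the next brightest.

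Because the transcription factor genes Nfib and Trps1 were among the genes higher in chandelier cells, the promoters of the higher genes were searched for short motifs of their families. The windows are from RefSeq on GRCm38.p6 and run from 250 bases before to 50 bases after the start site. The 3 shown belong to Unc5b and Mctp2, the genes with the largest difference that were also highest in chandelier cells, and to Nyap2, another gene of large difference, chosen after the search because its window held a match.
Unc5b (chr10:60831532-60831831, minus strand): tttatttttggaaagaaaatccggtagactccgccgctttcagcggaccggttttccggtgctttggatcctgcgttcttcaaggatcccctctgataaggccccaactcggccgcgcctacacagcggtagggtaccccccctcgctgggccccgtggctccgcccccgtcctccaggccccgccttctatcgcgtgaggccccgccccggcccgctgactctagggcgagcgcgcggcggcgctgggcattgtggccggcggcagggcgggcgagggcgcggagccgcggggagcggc
Mctp2 (chr7:72306546-72306845, minus strand): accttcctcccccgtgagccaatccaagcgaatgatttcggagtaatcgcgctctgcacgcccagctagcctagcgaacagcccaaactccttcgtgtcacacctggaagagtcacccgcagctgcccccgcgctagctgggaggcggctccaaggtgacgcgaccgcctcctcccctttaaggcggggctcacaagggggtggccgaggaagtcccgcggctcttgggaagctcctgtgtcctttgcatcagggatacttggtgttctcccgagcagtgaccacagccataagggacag
Nyap2 (chr1:81076700-81076999, plus strand): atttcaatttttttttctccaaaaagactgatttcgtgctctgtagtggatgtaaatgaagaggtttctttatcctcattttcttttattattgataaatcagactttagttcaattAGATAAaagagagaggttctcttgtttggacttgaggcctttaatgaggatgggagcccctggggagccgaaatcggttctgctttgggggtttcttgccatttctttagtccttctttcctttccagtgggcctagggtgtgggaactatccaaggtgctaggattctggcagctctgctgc
Capitals mark AGATAA, a short form of the motif bound by zinc fingers like those of Trps1, and would also mark TTGGCA, the core of a nuclear factor I site; both strands were searched, and the 2 motifs can share at most 1 base. The Unc5b and Mctp2 windows are rich in G and C (69.7% and 62.0%) and held neither run of letters, while the Nyap2 window (41.7%) held 1 AGATAA. Only these exact letters were searched, so other forms of either motif were not counted and may be present. Promoters were found for 124 of the 171 higher genes. TTGGCA was in 9.68% of them, against 13.7% of the 4731 tested genes with a promoter, 15.5% of 194 lower genes and 16.1% of all 27025 genes in the table. AGATAA was in 10.5% of them, against 7.46%, 9.28% and 12.7%. A match is a run of letters and not a binding site.

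Detection was also counted in single nuclei. Unc5b had a UMI in 91.4% of chandelier nuclei (64 of 70, exact 95% binomial interval 82.3% to 96.8%; median depth 16951 UMIs), in 3.87% of Pvalb nuclei (18926 UMIs) and in 0.662% of Sst nuclei (17297 UMIs). The shares were higher in Vip (15.9%; 13869 UMIs) and Lamp5 nuclei (12.2%; 16222 UMIs). With every nucleus thinned to 5000 UMIs, which left out no chandelier and 9 Pvalb nuclei, the shares were 57.1% in chandelier, 1.03% in Pvalb, 0.280% in Sst, 5.53% in Vip and 3.71% in Lamp5 nuclei. Vipr2 was seen in 64.3% of chandelier nuclei (interval 51.9% to 75.4%), 0.563% of Pvalb, 0.139% of Sst, 4.30% of Vip and 1.98% of Lamp5 nuclei, and after thinning in 30.0%, 0.154%, 0.0701%, 1.94% and 0.707%. In the same order, Mctp2 was seen in 90.0%, 3.92%, 6.66%, 0.710% and 11.95%, and Tacr1 in 78.6%, 19.5%, 7.08%, 0.918% and 4.90%. Other genes higher than in Pvalb nuclei were not set apart in this way. Nfib was seen in 95.7% of chandelier, 97.0% of Vip and 99.7% of Lamp5 nuclei, and Pde11a in 58.6% of chandelier and 95.2% of Lamp5 nuclei. Trps1 was seen in 98.6% of chandelier and 92.3% of Pvalb nuclei (98.6% and 77.0% after thinning), and Cpne5, after thinning, in 18.6% of chandelier and 25.9% of Sst nuclei. Intervals cover counting error only. A panel of Unc5b, Vipr2, Pthlh, Mctp2 and Tacr1 was counted as a description only, since Mctp2 and Tacr1 were picked for their lead in these same nuclei and the label comes from clustering the same counts. At least 3 of its genes were found together in 63 of 70 chandelier nuclei, but also in 8 of 3905 Pvalb, 1 of 2869 Sst, 0 of 2396 Vip (which at the lower depth of these nuclei allows a share with these UMIs of up to 0.125%) and 9 of 1163 Lamp5 nuclei. With all nuclei thinned to 5000 UMIs, at least 2 of these genes were found in 72.9% of chandelier, 0.411% of Pvalb, 0.280% of Sst, 0.127% of Vip and 2.12% of Lamp5 nuclei.

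The genes with the largest deficit were far below the Pvalb level in every library. Kcnip4 (chromosome 5, 48389502 to 49524907), a partner of Kv4 potassium channels, ran from 77.4 to 970 CPM with a median of 230 in chandelier cells and from 5021 to 6557 CPM in Pvalb nuclei, a log2 difference of -4.04 (SE 0.52). Without the 3 atypical nuclei its chandelier level was 165 CPM and the difference -5.01. Grin2a (chromosome 16, 9567898 to 9995560), the NMDA receptor subunit GluN2A, ran from 0 to 152 CPM with a median of 58.4, against 740 to 1405 CPM (-3.71, SE 0.45); in 67 nuclei its mean was 43.6 CPM and the difference -4.39. The cadherin genes Cdh13 and Cdh7 stood at 27.7 ± 24.8 against 576 ± 120 CPM and 9.30 ± 11.3 against 268 ± 41.8 CPM, and the E3 ligase gene Pdzrn3 stood at 5.90 ± 8.90 against 199 ± 16.1 CPM. Ndst3, an N-deacetylase and sulphotransferase of heparan sulphate, was at 22.9 ± 36.3 against 299 ± 42.2 CPM, and 25 of its 28 chandelier UMIs came from 2 of the atypical nuclei. In the 67 nuclei it was at 2.94 CPM and its difference moved from -3.45 to -5.26. Kif26b (2 UMIs, against 112 ± 17.5 CPM in Pvalb) and Mybpc1 (3 UMIs, against 99.9 ± 20.5 CPM) were close to absent. St6galnac5, Plxdc2, Prr16, Plcl1 and March1 completed the group, at 9.86 to 28.5 CPM in chandelier cells and 215 to 452 CPM in Pvalb nuclei. The atypical nuclei also held part of the UMIs of other genes in this group: in 67 nuclei the means were 18.2 CPM for Cdh13, 4.13 for Cdh7, 3.67 for Pdzrn3, 4.76 for St6galnac5, 4.73 for Prr16 and 4.67 for Plcl1. No library of chandelier cells reached the lowest Pvalb library for any gene named here.

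Across the gene lists, 222 of 365 distinct genes passed the filter, of which 27 (12.2%) were higher and 56 (25.2%) lower, against 2.85% and 4.33% of all genes tested. The median log2 difference of these genes was -0.13, beside -0.06 for all genes tested. Several lists were drawn up with results of these data known, so their counts are a description, and each is to be read against those background shares. The filter on the mean of both types left out 143 of the 365 genes, and a low gene could pass it through the type where it was high, so the shares among genes that passed are partly set by the filter. Most genes of the MGE lineage were detected, except Nkx2-1, which had 2 UMIs. Lhx6, the MGE homeobox gene, was at 70.3 ± 22.2 against 62.7 ± 10.5 CPM. Sox6 was at 630 ± 131 against 1112 ± 62.1 CPM. The transcription factor gene Maf was at 399 ± 74.5 against 195 CPM, higher by the rule but just inside its limit (1.01). Satb1 (chromosome 17, 51736187 to 51833290), a chromatin organiser downstream of Lhx6, differed most, at 17.4 ± 12.5 against 239 ± 14.4 CPM (-3.45, SE 0.29). Of 7 MGE genes that passed the filter, 1 was higher (14.3%, against 2.85% of all genes) and 4 were neither. Lower were 2, Satb1 among them (28.6%, against 4.33%). The CGE genes Prox1, Nr2f2 and Sp8 had 0 UMIs among 1277331, which allows up to 2.35 CPM each. Adarb2 was at 95.2 ± 230 CPM, but 105 of its 123 UMIs came from the atypical DR GR-KO male nucleus, and it stood at 9.61 ± 12.1 CPM in 67 nuclei. The subclass markers Sst, Vip and Lamp5 stood at 0.882 to 4.31 CPM, Ndnf, Calb2, Chodl and Nos1 at 0 UMIs, and Reln at 1.68 ± 3.12 against 70.7 ± 10.4 CPM in Pvalb nuclei.

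Fast-spiking genes were shared only in part. Pvalb itself, the calcium buffer that names the class, ran from 0 to 32.5 CPM with a median of 11.9 against 33.9 to 56.0 CPM (-1.56, SE 0.29), with a UMI in 18.6% of chandelier nuclei and 53.4% of Pvalb nuclei. Syt2, the fast calcium sensor of basket cell terminals, was at 10.7 ± 11.7 against 114 ± 18.7 CPM. Kcnc1 and Kcnc2 encode the Kv3 channels that permit fast spiking, and they parted: Kcnc1 was at 389 ± 55.1 against 407 ± 55.7 CPM, whereas Kcnc2 was at 1437 ± 381 against 4783 ± 331 CPM (-1.73, SE 0.11). Of 8 basket cell genes that passed the filter, 4 (Pvalb, Syt2, Kcnc2 and Btbd11) were lower (50%, against 4.33% of all genes) and 0 higher. The list median was -1.13. Ppargc1a and Esrrg, transcriptional regulators of oxidative metabolism, were below Pvalb in 8 of 8 libraries by less than the limit (-0.52 and -0.70). Among perineuronal net genes Acan, the aggrecan core protein, was at 12.2 ± 10.2 against 15.7 ± 2.79 CPM. Of the 3 of 10 net genes that passed, the lectican gene Bcan (26.4 ± 20.0 against 58.2 ± 8.86 CPM) and the phosphatase gene Ptprz1 (12.8 against 82.6 ± 28.4 CPM) were lower (66.7%, against 4.33% of all genes). Without the atypical nuclei Bcan no longer passed the limit (-0.96), and Ptprz1 stood at 5.83 CPM (-3.02).

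Of 9 genes of the axo-axonic synapse, 1 was higher and 0 lower, and the 88.9% that were neither compare with 92.8% of all genes tested. The higher gene was Fgf13, an intracellular partner of sodium channels, at 2396 ± 359 against 515 ± 28.8 CPM (2.21, SE 0.08). Erbb4, the neuregulin receptor of interneurons, was at 19811 ± 2376 against 14387 ± 481 CPM, with no overlap between libraries but a log2 difference of 0.46. Its level in chandelier cells was the highest of the 20 types. L1cam, Ank3, Nfasc, Sptbn4 and Gphn, which encode adhesion and scaffold proteins of the initial segment and the inhibitory synapse, differed by -0.47 to 0.11. Cxcr4 had 0 UMIs.

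Guidance genes differed in both directions, with 5 of 27 higher (18.5%, against 2.85% of all genes) and 11 lower (40.7%, against 4.33%). Of the netrin receptor genes, 4 were higher: besides Unc5b, Dcc was at 1098 ± 194 against 330 ± 69.9 CPM, Unc5d at 1584 ± 327 against 704 ± 124 CPM and Unc5c at 935 ± 182 against 464 ± 37.6 CPM. The receptor gene Neo1 was at 45.5 ± 14.8 against 58.6 ± 6.63 CPM and Unc5a at 7.77 ± 8.07 against 13.6 ± 1.72 CPM, below the filter. The netrin gene Ntn1 itself had 0 UMIs and Ntn4 was neither (75.3 ± 36.5 against 77.1 ± 4.92 CPM). Among the Slit and Robo genes that passed the filter, 3 were lower and Robo2 was neither. Robo1, a Slit receptor, was at 253 ± 124 against 2177 ± 92.6 CPM (-3.08, SE 0.23), Slit2 at 141 ± 88.3 against 911 ± 104 CPM and Slit3 at 29.7 ± 28.3 against 236 ± 36.2 CPM, and Robo2 was at 1219 against 1170 CPM. In 67 nuclei Slit3 was at 14.7 CPM. The semaphorin genes Sema3a, Sema3e, Sema5a and Sema6a were lower, at 5.03 to 9.66 CPM against 65.8 to 110 CPM, although 1 library of chandelier cells reached the Pvalb range for Sema3e. In 67 nuclei Sema3a was at 0.677, Sema3e at 2.45 and Sema5a at 3.36 CPM. Among Eph genes, Epha5 was higher (1833 ± 302 against 573 ± 32.1 CPM), and Epha7, Ephb1 and the ligand gene Efna5 were lower.

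Adhesion genes also differed in both directions, with 6 of 47 higher (12.8%, against 2.85% of all genes) and 9 lower (19.1%, against 4.33%). The list median of -0.09 was near that of all genes. Higher were Cdh6, Cdh9, Cdh12, Pcdh19, Cntn3 and Cntnap5b, and lower were Cdh7, Cdh13, Cdh18, Pcdh7, Pcdh11x, Cntn6, Cntnap4, Ptprt and Ptprk. Cdh12 was at 1600 ± 190 against 446 ± 49.5 CPM and Pcdh19 at 243 ± 54.0 against 64.2 ± 14.7 CPM, the latter 2.48 times the next of the 20 types. Cdh9 ran from 221 to 1201 CPM over the chandelier libraries, and its range overlapped with Pvalb. Of the 45 Ptprt UMIs, 37 came from the 3 atypical nuclei, and in 67 nuclei it was at 7.96 CPM (-4.39).

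**Figure D4:**
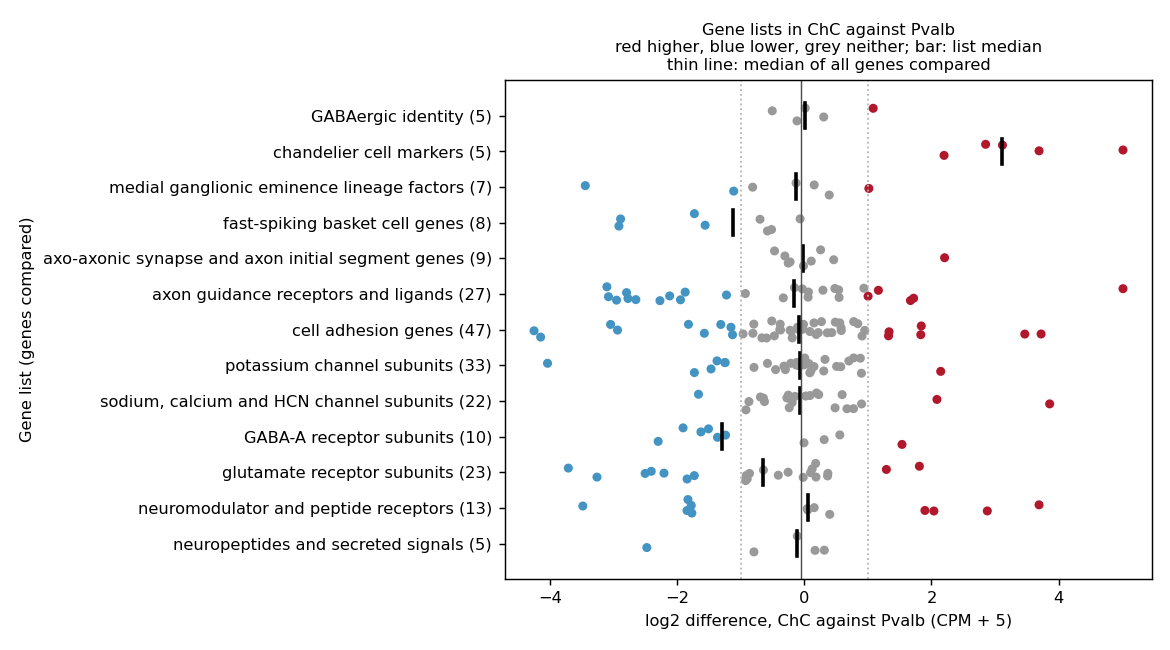
Log2 difference of chandelier against Pvalb nuclei (CPM + 5) for the genes of 13 lists that passed the filter; each point is a gene, red higher, blue lower and grey neither, with dotted lines at -1 and 1, a bar at the list median and a thin line at the median of all genes. GABA-A receptor and basket cell genes are centred below -1, chandelier markers above 2, and the channel, adhesion and axo-axonic lists near the median of all genes.

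Ion channel genes were counted in 2 lists. Of 33 potassium channel genes, 1 was higher (3.03%, against 2.85% of all genes) and 6 lower (18.2%, against 4.33%). Kcnd3, the Kv4.3 subunit, was at 210 ± 43.5 against 43.6 ± 9.34 CPM (2.15, SE 0.06), while its partner Kcnip4 had the most negative difference of the list and Kcnip1 and Kcnip2 differed by -0.30 and 0.10. Kcna1 and Kcna2, the Kv1 subunits of axons, were at 27.4 ± 19.4 against 72.2 ± 10.9 and 13.3 ± 9.31 against 38.5 ± 3.74 CPM. Of 22 sodium, calcium and HCN channel genes, 2 (9.09%, against 2.85% of all genes) were higher, Cacna2d3 and the T-type channel Cacna1g (64.5 ± 31.6 against 11.4 ± 4.26 CPM). The R-type channel Cacna1e (30.9 ± 27.2 against 109 ± 27.2 CPM) was the 1 lower gene, a share (4.55%) near that of all genes (4.33%). Scn1a, the main sodium channel of fast-spiking cells, differed by -0.28 and Scn8a by -0.15.

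Receptor genes of fast transmission were next. Of 10 GABA-A receptor subunits, 6 were lower (60%, against 4.33% of all genes), 1 was higher (10%, against 2.85%) and the median was -1.30. Among the lower subunits were Gabra3 (32.7 ± 11.4 against 92.4 ± 5.34 CPM), Gabra4, Gabrb1 and Gabrb2 (306 against 729 CPM), and the libraries of these 4 did not overlap. Gabra2 was the exception, at 93.9 ± 39.7 against 29.1 ± 6.21 CPM (1.54, SE 0.23). Gabrg3 was at 3879 against 3124 CPM, a log2 difference of 0.31. Of 23 glutamate receptor genes, 7 were lower (30.4%, against 4.33% of all genes), 2 higher (8.70%, against 2.85%) and the median was -0.64. The AMPA subunit genes Gria1 to Gria4 were neither higher nor lower by the rule (-0.64 to 0.37), whereas the kainate receptor genes Grik1 (180 ± 79.1 against 980 ± 123 CPM) and Grik3 (7.72 against 67.2 CPM; 4.11 CPM in 67 nuclei) were lower. Grid1 (657 ± 104 against 266 ± 27.2 CPM) and Grin3a (110 ± 62.9 against 27.7 ± 8.85 CPM) were higher.

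Receptor genes for modulators differed in both directions. Of 41 genes, 13 passed the filter, some of them (such as Vipr2 and Htr2c) through 1 type only. Of these 13, 4 were higher (30.8%, against 2.85% of all genes): Vipr2, Tacr1, the μ-opioid receptor gene Oprm1 (37.7 ± 16.7 against 5.39 ± 2.14 CPM) and the serotonin receptor gene Htr1f (638 ± 126 against 168 ± 22.0 CPM). Lower were 5 (38.5%, against 4.33% of all genes): the serotonin receptor genes Htr2a, Htr2c and Htr4, the adrenergic receptor gene Adra1a (74.2 ± 23.8 against 265 ± 36.7 CPM) and the muscarinic receptor gene Chrm2 (20.3 ± 24.6 against 85.2 ± 16.9 CPM). Htr2c had 3 UMIs in chandelier cells, all in 1 library and 0 in the 67 nuclei, against 54.4 to 96.3 CPM. Of 31 neuropeptide and secreted signal genes, 5 passed the filter and 1 (20%, against 4.33% of all genes) was lower. The lower gene was the neuregulin gene Nrg1 (186 ± 87.8 against 1060 ± 98.0 CPM), while Nrg3 differed by -0.11.

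The conditions were compared first by the share of chandelier cells. It ran from 0.451% (NR GR-Con male, 6 of 1329 inhibitory nuclei, exact 95% interval 0.166% to 0.980%) to 1.12% (DR GR-KO female, 14 of 1249, interval 0.614% to 1.87%). The 4 DR libraries averaged 0.817% ± 0.249 (44 nuclei) and the 4 NR libraries 0.553% ± 0.105 (26 nuclei), and their ranges overlapped. The difference of 0.264 percentage points did not pass the exact permutation test (two-sided p = 0.114, adjusted over 2 comparisons 0.114; the smallest p possible is 0.0286), although it was positive in 4 of 4 pairs matched for vector and sex. The 4 GR-KO libraries averaged 0.819% ± 0.235 and the 4 GR-Con libraries 0.550% ± 0.126, a difference of 0.269 percentage points (exact permutation p = 0.0857, adjusted 0.114), likewise positive in 4 of 4 pairs matched for rearing and sex. With labels permuted only within the other factor, the exact permutation p was 0.0556 for each comparison, which is the smallest that its 36 splits allow, so this form could not pass 0.05. Both comparisons use the same 8 libraries. The 3 atypical nuclei lay in DR libraries, and without them the rearing difference was 0.211 points (exact permutation p = 0.229). The vector difference without them was 0.279 points (exact permutation p = 0.0571). Without the DR GR-KO female library the rearing difference was 0.162, without DR GR-Con male 0.360 (exact permutation p = 0.0286), and the vector difference without DR GR-KO female was 0.169. A share of sorted nuclei is not a density of cells.

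**Figure D5:**
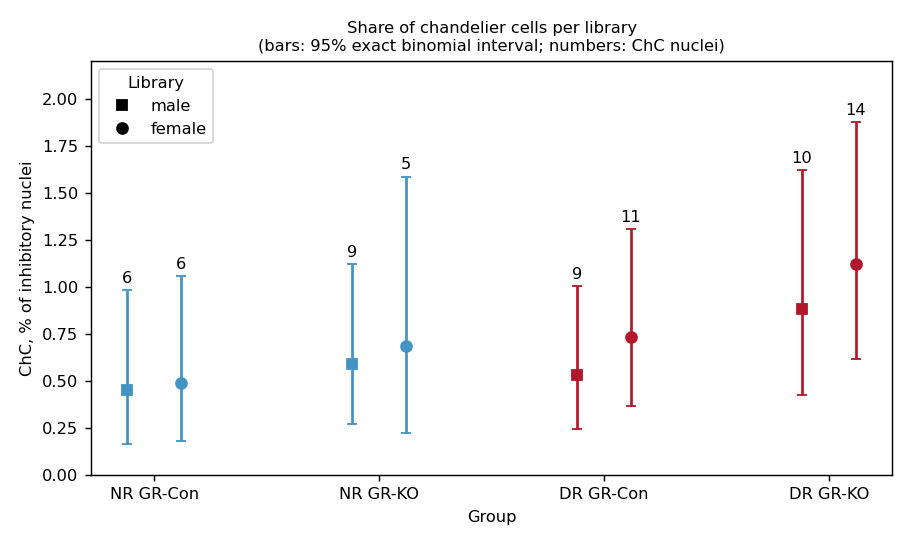
Chandelier nuclei as a percent of inhibitory nuclei in each library, by group, with squares for male and circles for female libraries; bars are 95% exact binomial intervals and the numbers are chandelier nuclei. The highest value is DR GR-KO female at 1.12% and the lowest NR GR-Con male at 0.451%, and the intervals of all 8 libraries overlap.

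Of 7 corticosteroid receptor and target genes, 4 passed the filter. Nr3c1, the targeted receptor gene, had 5 to 21 UMIs per library; in the GR-Con libraries it stood at 55.3 to 106 CPM and in the GR-KO libraries at 37.9 to 70.4 CPM, which overlapped. Nr3c2, the mineralocorticoid receptor gene, had 252 UMIs and ran from 139 to 261 CPM, with overlap between all conditions. Sgk1, a glucocorticoid target gene, was at 62.9 ± 24.5 against 181 ± 10.0 CPM in Pvalb nuclei and thus lower by the rule, with overlap between all conditions. Fkbp5 had 26 UMIs. Of 12 activity-linked genes 1 passed the filter, since Npas4 had 0 UMIs, Fos 1, Arc 2 and Egr1 11. The 11 Egr1 UMIs lay in the 4 GR-KO libraries, 6 of them in NR GR-KO male, and the GR-Con libraries held 0, a split of few UMIs that was not tested. The 1 activity-linked gene that passed the filter was Osbpl3, a lipid-transfer protein gene, listed with earlier results of these data known. It stood at 1682, 1758, 1673 and 1221 CPM in the NR libraries (GR-Con male and female, GR-KO male and female) and at 685, 489, 1322 and 692 CPM in the DR libraries in the same order. The Pvalb nuclei of these libraries held 1154, 1234, 1092 and 755 CPM, then 410, 372, 744 and 422 CPM. Chandelier cells thus had the higher level in 8 of 8 libraries, and in both types the DR GR-KO male library stood above the other DR libraries. Of the vector transcripts, EGFP had 0 UMIs in chandelier cells, Cre had 1 (in DR GR-KO female) and delCre 2. Both delCre UMIs lay in libraries labelled GR-KO, 1 in NR GR-KO female and 1 in the DR GR-KO female nucleus that also held the Cre UMI, and the GR-Con libraries held 0 of either. Cre and its truncated form share sequence, so reads of these few molecules may not tell them apart.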

How the data were processed

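Raw UMI counts were taken from the count matrix that the authors deposited. Labels for library, rearing, sex, vector and cell type, and the percent of mitochondrial UMIs, came from their deposited annotation. According to the methods of the study and the submitters' processing notes, the authors sorted DRAQ5-positive, GFP-negative nuclei, used 10x 3′ chemistry, Cell Ranger 8.0.1 on mm10 and Seurat 5.3.0, and removed predicted doublets before deposit. Matrix column sums equalled the deposited UMI numbers for 102330 nuclei.

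Nuclei were taken by the deposited label ChC and summed per library. CPM used total UMIs; differences used a pseudocount of 5 CPM, a mean of at least 20 CPM and a jackknife SE over 8 libraries. Named genes were all members of the gene lists, the 15 largest and 15 smallest differences with a mean of at least 50 CPM, and up to 12 genes at 50 CPM or more that were highest in chandelier cells, by their ratio to the next type; predicted gene models were counted but not described, and some named genes are not reported here. Exact permutation tests were two-sided. The script was tested on simulated data. Thinning used 5000 UMIs; edgeR 4.0.16 gave TMM factors as an alternative. Coordinates are from GENCODE on GRCm38. The members and gene lists were chosen with earlier results of these data known. Library names give group and sex but not the sample number.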

Additional observations from a re-analysis of the deposited data

Results flagged for a closer look

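Among 43 sets of library values checked for a sample far from the others, 1 stood out, where chance alone flags about 1 in 20. The log2 difference of Ryr1 between chandelier and Pvalb nuclei was 0.81 in the NR GR-Con male library, against a median of 2.72 over the 8 libraries. That library holds 6 chandelier nuclei, and Ryr1 stood at 22.1 CPM there, from 90385 UMIs.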

How the results depend on the processing

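The 171 higher and 260 lower genes were recounted under alternatives. Leaving out each library in turn gave 171 to 182 higher and 260 to 276 lower genes. These kept 162 to 168 of the 171 and 242 to 253 of the 260. With a library left out the rule asked for 6 of 7 libraries. A gene that met 7 of 8 always met this, so that part of the rule could not remove genes. With a filter of 100 CPM the counts were 83 and 106, since fewer genes were tested; with 5 CPM 399 and without a filter 463 genes were lower. Pseudocounts of 1 and 20 CPM, sums over all nuclei, means over single nuclei, thinning, TMM factors, 8 of 8 libraries and leaving out the tenth of nuclei with most excitatory and glial marker UMIs kept both counts within 1.5 times. The genes counted were less steady than their number. Thinning kept 139 of the 171 and 219 of the 260, and a pseudocount of 20 CPM kept 135 and 190. Without the 3 atypical nuclei, an alternative chosen after seeing the data, 182 and 277 genes counted, which included 171 of the 171 and 250 of the 260. The 3 nuclei were singled out from these same counts by their likeness to another type. Wider differences from Pvalb nuclei without them were therefore likely from the start. Of 1808 recomputed differences of 113 named genes, 0 changed sign and 43 moved by more than 1 SD between libraries, 39 of them with another pseudocount. These genes were picked for their differences or their lead in chandelier cells, so a change of sign was unlikely from the start. Leaving out a single library can hardly move a difference by 1 SD. The counts remain tied to the limits chosen. Among these alternatives only the filter moved a count past 1.5 times, while the genes counted changed under others too. The share differences kept their sign under all alternatives run; leaving out each library gave 0.162 to 0.360 points for rearing (exact permutation p 0.0286 to 0.200, the lowest without DR GR-Con male) and 0.169 to 0.346 for the vector, and the log2 ratio of depths stayed between -0.18 and -0.13. No paired analysis was possible because, for pairing by the replicate number of the labels, the library names do not carry that number. Matching by sex or by the other factor was possible, and permutation within sex gave exact p = 0.167 for rearing and 0.111 for the vector, within the other factor 0.0556 for each, the smallest that the 36 splits of either form allow. Depth limits single genes: 0 UMIs over all libraries allows up to 2.35 CPM.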
